A study of Mus musculus with 12 samples.

Results

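The collagen genes were taken from the deposited gene table by name, as every symbol that consists of Col, a type number, the letter a and a chain number. The table of 37748 genes held 43 such genes, and 40 of them had 10 or more counts in at least 3 of the 12 mice and were kept. All 40 also passed the low-count filter of the test, which left 16679 genes in all. The 40 genes were divided into 11 fibrillar collagens, 8 basement membrane collagens (the 6 type IV chains with Col15a1 and Col18a1) and 21 others. Col9a2, Col6a4 and Col9a3 were not kept. Their counts in the mouse that ranked 3 from the top were 4, 6 and 6, and the kept genes nearest to the minimum were Col2a1 with 14 and Col4a6 with 16. Emid2, an older symbol of the type XXVI collagen gene, lies outside the name rule and was not counted.

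Gastrocnemius muscle of 12 mice, 3 in each of 4 groups, was profiled by single-end, poly(A)-selected RNA-seq, with 1 library per mouse. The study compared mouse models of facioscapulohumeral muscular dystrophy (FSHD) in which DUX4-fl, the full-length transcript of the human DUX4 gene, is switched on in muscle to different degrees. In control mice the only transgene was ACTA1-MCM/+, which makes MerCreMer, a tamoxifen (TMX)-inducible Cre recombinase, under the skeletal actin promoter. FLExDUX4/+ mice, here FLExD/+, carried only the conditional transgene, in which DUX4 stands inverted behind the Rosa26 promoter until Cre turns it. The moderate and the severe group carried both (FLExDUX4/+;MCM/+). Per the labels, the first 2 groups received no TMX, the moderate group 1 intraperitoneal injection of 5 mg/kg, and the severe group 2 injections of 10 mg/kg on consecutive days. The mice were 13 weeks old, and by the methods of the study the TMX groups were taken on day 9. With controls that had no TMX by the labels, the effect of the drug itself cannot be told apart from that of recombination. The study lists its ACTA1-MCM/+ control groups with TMX, but its RNA-seq methods do not say whether these controls were injected. Recombination in these models is mosaic, so each library pools fibers with and without DUX4-fl with all other cells of the muscle, and fewer cells of a type and less RNA per cell cannot be told apart. The labels give the FLExD/+ mice mild pathology, a name that the study uses for untreated mice with both transgenes, and their treatment text uses mild for the dose that the sample labels call moderate. The genotypes and groups of the sample labels were kept here.

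Collagens are built from alpha chains that wind around each other into helical trimers. Fibrillar collagens (types I, III, V, XI and relatives) are secreted as procollagens, trimmed at their ends and cross-linked into the fibrils of the muscle's connective tissue layers. Type IV chains form the sheet-like network of the basement membrane that surrounds each muscle fiber and capillary. Among the others, type VI forms beaded filaments next to that basement membrane, and the fibril-associated collagens (FACITs) decorate fibril surfaces. Fibroblasts and their progenitors are the main makers of fibrillar collagen in muscle, and a gain of it is the hallmark of fibrosis.

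Libraries held 23796902 to 29136403 counts, at which 3 counts correspond to 0.0676 to 0.155 CPM. CPM, edgeR's counts scaled to library sizes that carry its TMM factor between libraries, are used here for changes of one gene. TPM, which also divide by transcript length, are used for comparing genes with one another and carry no factor between libraries. The scaling matters here, since 6 skeletal muscle markers alone summed to 122544 to 167642 CPM in control and 7965 to 14519.5 CPM in severe mice. With TMM, all genes tested had a median log2 difference from control of 0.04 in moderate and 0.08 in severe mice, against 0.65 and 1.39 with library size alone and 0.29 and 0.79 on log2(TPM + 1). A gene was called when its adjusted p by edgeR was below 0.05 and its log2 fold change was 0.5 or more in size, and all adjusted p values below are of that test unless another is named. Errors of log2 fold changes are standard errors, and values per mouse stand in the order 1127, 1246 and 1349 (control), 1358, 1367 and 1378 (FLExD/+), 1236, 1308 and 1331 (moderate) and 1047, 1066 and 1079 (severe).

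1 control library stood apart for these genes. Of the 40 collagens, 33 (82.5%) were highest among the controls in mouse 1349, against 33.7% of all genes tested. In 10 collagens (25%), 7 of them fibrillar, mouse 1349 exceeded both other controls by over 2 times, against 2.08% of all genes tested. Col1a1, the pro-alpha1 chain of type I collagen, had 54.6, 114 and 549 CPM in the 3 controls. The summed level of 4 tendon markers was also highest there, at 34.7, 50.6 and 79.1 CPM in the 3 controls, and the summed level of 6 muscle markers was 160151, 122544 and 167642 CPM in the same order. The part of tendon or other connective tissue in this library was not tested. Log2 changes without mouse 1349 are therefore drawn for each collagen in the plot of changes. They are given in the text for most of those whose call changed and for most of the others described in detail.

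The 5 genes whose upstream sequence is shown were chosen because they carry the results below: Col1a2 and Col3a1 for the main fibrillar chains, Col5a1 for the chain that starts fibrils, and Col8a1 and Col24a1 for the largest rises. Each line gives the 120 bases just before the start that RefSeq annotates on GRCm38.p6, 5′ to 3′ on the gene's strand. For Col1a2 the GENCODE M21 gene begins upstream of this, at position 4504814 of chromosome 6, so that the stretch lies inside that gene model. Capitals mark matches on either strand to the GC box GGGCGG, the CCAAT box CCAAT and the TATA box TATAAA.
Col1a2 (chr6:4505498-4505617, plus strand): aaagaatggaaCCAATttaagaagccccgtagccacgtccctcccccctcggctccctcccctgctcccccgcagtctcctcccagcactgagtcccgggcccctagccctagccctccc
Col3a1 (chr1:45311418-45311537, plus strand): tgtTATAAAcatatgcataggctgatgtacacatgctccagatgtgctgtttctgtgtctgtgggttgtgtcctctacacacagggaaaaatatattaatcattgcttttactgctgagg
Col5a1 (chr2:27886305-27886424, plus strand): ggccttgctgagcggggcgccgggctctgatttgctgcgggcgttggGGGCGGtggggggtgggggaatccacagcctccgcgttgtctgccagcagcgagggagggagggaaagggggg
Col8a1 (chr16:57754738-57754857, minus strand): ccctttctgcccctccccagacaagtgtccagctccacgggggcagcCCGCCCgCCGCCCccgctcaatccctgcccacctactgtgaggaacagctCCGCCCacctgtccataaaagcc
Col24a1 (chr3:145292352-145292471, plus strand): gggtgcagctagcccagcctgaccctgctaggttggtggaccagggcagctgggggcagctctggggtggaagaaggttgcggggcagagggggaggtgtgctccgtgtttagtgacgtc
Col8a1 held 3 GC boxes, all on the reverse strand, Col5a1 held 1, Col1a2 had 1 CCAAT box and Col3a1 had 1 TATA box near the upstream end of the stretch. Col24a1 had none of these letters in the stretch shown. Of the 40 genes, 33 had an entry in the RefSeq table. These had 36 windows, more than 1 for some genes. In the 250 bases before the start, the GC box was found in 20 of the 36 windows (55.6%), against 32.7% of 32851 windows of all genes. The CCAAT box was found in 12 (33.3% against 33.8%) and the TATA box in 5 (13.9% against 12.4%). Base composition was not matched in these shares. Entries for Col1a1, Col2a1, Col4a3, Col5a2, Col12a1, Col14a1 and Col22a1 were not in the table used here.

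Collagen mRNA as a whole took a larger part of the muscle transcriptome in both models. The TPM of the 40 genes summed to 178, 226 and 539 in control, 225, 206 and 304 in FLExD/+, 1050.3, 1215 and 1002 in moderate and 3883, 3047 and 2751 in severe mice. The 3 severe mice lay above the 3 moderate mice, and these above all single-transgenic mice. These sums carry no factor between libraries, and transcripts of skeletal muscle fell in the same libraries, a part that was not tested. Shares of the collagen TPM within a mouse do not depend on such a factor. Fibrillar collagens made up 46.2, 54.1 and 67.1% of the collagen TPM in controls, 54.2, 50.9 and 58% in FLExD/+, 68.9, 68.7 and 69.5% in moderate and 77.9, 74.8 and 75.4% in severe mice. The basement membrane class made up 23.4, 18.9 and 12.8% in controls, 18.5, 21 and 15.9% in FLExD/+, 10.4, 11.1 and 10.6% in moderate and 5.2, 7.1 and 6.05% in severe mice. The other class ranged from 20.1 to 30.4% in controls to 16.8 to 18.5% in severe mice. In both shares, the moderate mice lay beyond the range of the 3 controls and 3 FLExD/+ mice, and the severe mice beyond the moderate ones, with control mouse 1349 the nearest to the models.

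**Figure D1:**
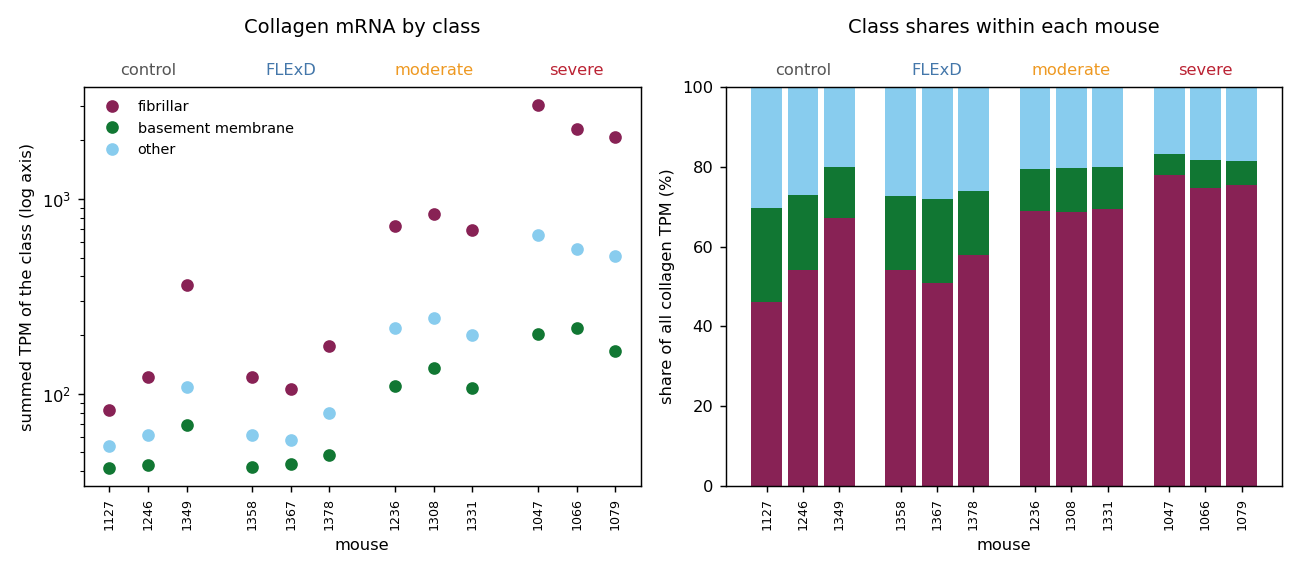
Summed TPM of the fibrillar, basement membrane and other collagens in each of the 12 mice (left, log axis) and the share of each class in the collagen TPM of the same mouse in percent (right), grouped as control, FLExD, moderate and severe. The fibrillar share rises from 46.2% in control mouse 1127 to 77.9% in severe mouse 1047, while all 3 classes have more TPM in the 3 severe than in the 3 control mice.

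By mean TPM, Col3a1, the chain of type III collagen, ranked first, followed by Col1a2, in all 4 groups. Control mouse 1349 was an exception, with 109.6 TPM of Col1a2 against 106 TPM of Col3a1. Col3a1 took 19, 19.9 and 19.7% of the collagen TPM in controls and 21.2, 22 and 19.5% in FLExD/+ mice. It took 41, 36 and 37.3% in moderate and 39.2, 43 and 42.9% in severe mice, with no overlap between the single-transgenic and the TMX-treated mice but with overlap between the 2 models. Mean TPM of Col3a1 were 61.6 ± 39 (SD, n = 3) in control and 1338 ± 174 in severe mice. Further down the order, Col5a2 moved to rank 5 in moderate and rank 4 in severe mice, whereas Col4a1, at rank 5 in controls, stood at rank 6 and then rank 8. Next in the control order, Col1a2 and Col1a1 had 55 ± 47.9 and 44.2 ± 50.5 TPM, with Col1a2 the higher of the pair in each of the 12 mice. In severe mice they had 462 ± 120.2 and 334 ± 164 TPM, both below every Col3a1 value.

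Between FLExD/+ and control mice, the comparison of the single transgenes, 0 of the 40 collagens were called higher and 0 lower by edgeR, where the share over all genes was 0% higher and 0.00600% lower. At an unadjusted p under 0.05 there was 1 collagen, Col4a3, and DESeq2 and limma on log2(TPM + 1) also called 0. The direction over the family depended on mouse 1349: 31 of 40 log2 fold changes were below 0 with it and 15 of 40 without it. In moderate mice 18 collagens were called higher and 4 lower, against 24.4% and 17% of all genes tested. In severe mice 23 were higher and 7 lower, against 32.9% and 27.9%. Between severe and moderate mice 13 were higher and 7 lower, against 17.6% and 18.8%. The first 2 of these comparisons share the control mice and are given side by side, not as separate evidence. With TMM the higher count was a larger share than the background in both models, and the lower count was not. Under the 2 scalings of the next paragraph, the higher count in severe mice lay nearer to its background. It was 32 of 40 against 75.4% of all genes with library size alone. On log2(TPM + 1) it was about at its background, with 26 of 40 against 64.1%. The same held there between the models, with 20 of 40 against 48.2%. In moderate mice the higher count was 24 of 40 against 52.5% with library size alone and 20 of 40 against 31.5% on log2(TPM + 1). The lower count in severe mice was then no longer below its background.

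The split of the calls moved with the scaling. With library size alone it was 24 higher and 2 lower in moderate, 32 higher and 3 lower in severe and 26 higher and 2 lower in severe versus moderate mice. The shares over all genes were then 52.5% higher and 4.51% lower, 75.4% and 6.42%, and 57.8% and 4.93%, in the same order. On log2(TPM + 1) it was 20 higher and 1 lower, 26 higher and 3 lower and 20 higher and 1 lower, where the shares over all genes were 31.5% higher and 4.42% lower, 64.1% and 5.92%, and 48.2% and 3.77%. Both scalings move the median of all genes upward, so that mainly the signs of the lower calls were open to turn. All 4 lower calls in moderate mice and all 7 between the models kept their sign under both. Of the 7 lower calls in severe mice, Col20a1 and Col6a6 turned. With library size alone 20 of the 22 calls in moderate mice remained, 26 of the 30 in severe mice and 15 of the 20 between the models. On log2(TPM + 1) 17, 25 and 14 remained. Without control mouse 1349, 25 collagens were called in moderate mice (20 of the 22 remained), 29 in severe mice (27 of the 30 remained) and 24 between the models (all 20 remained), against 39.8%, 58.4% and 35.8% of all genes.

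By class, the fibrillar collagens had median log2 changes of 0.82 in moderate and 1.75 in severe mice, with 5 higher and 1 lower of 11 called and 7 higher and 2 lower. Over all genes the calls were 24.4% higher and 17% lower in moderate and 32.9% higher and 27.9% lower in severe mice. Without mouse 1349 the fibrillar medians were 1.90 and 2.32, with 8 higher and 0 lower and 8 higher and 1 lower. The basement membrane class had medians of 0.19 and 0.06, near the 0.04 and 0.08 of all genes, with 3 higher and 0 lower of 8 called and 3 higher and 1 lower. With library size alone its medians were 0.79 and 1.37, again near those of all genes. Without mouse 1349 they were 0.56 and 0.43, with 4 higher and 0 lower and 4 higher and 1 lower. The other class had medians of 0.81 and 1.54, with 10 higher and 3 lower of 21 called and 13 higher and 4 lower, and medians of 1.15 and 1.89 without mouse 1349. Between severe and moderate mice the medians were 0.70 for the fibrillar, 0.01 for the basement membrane and 0.60 for the other class. No test was made over a class.

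**Figure D2:**
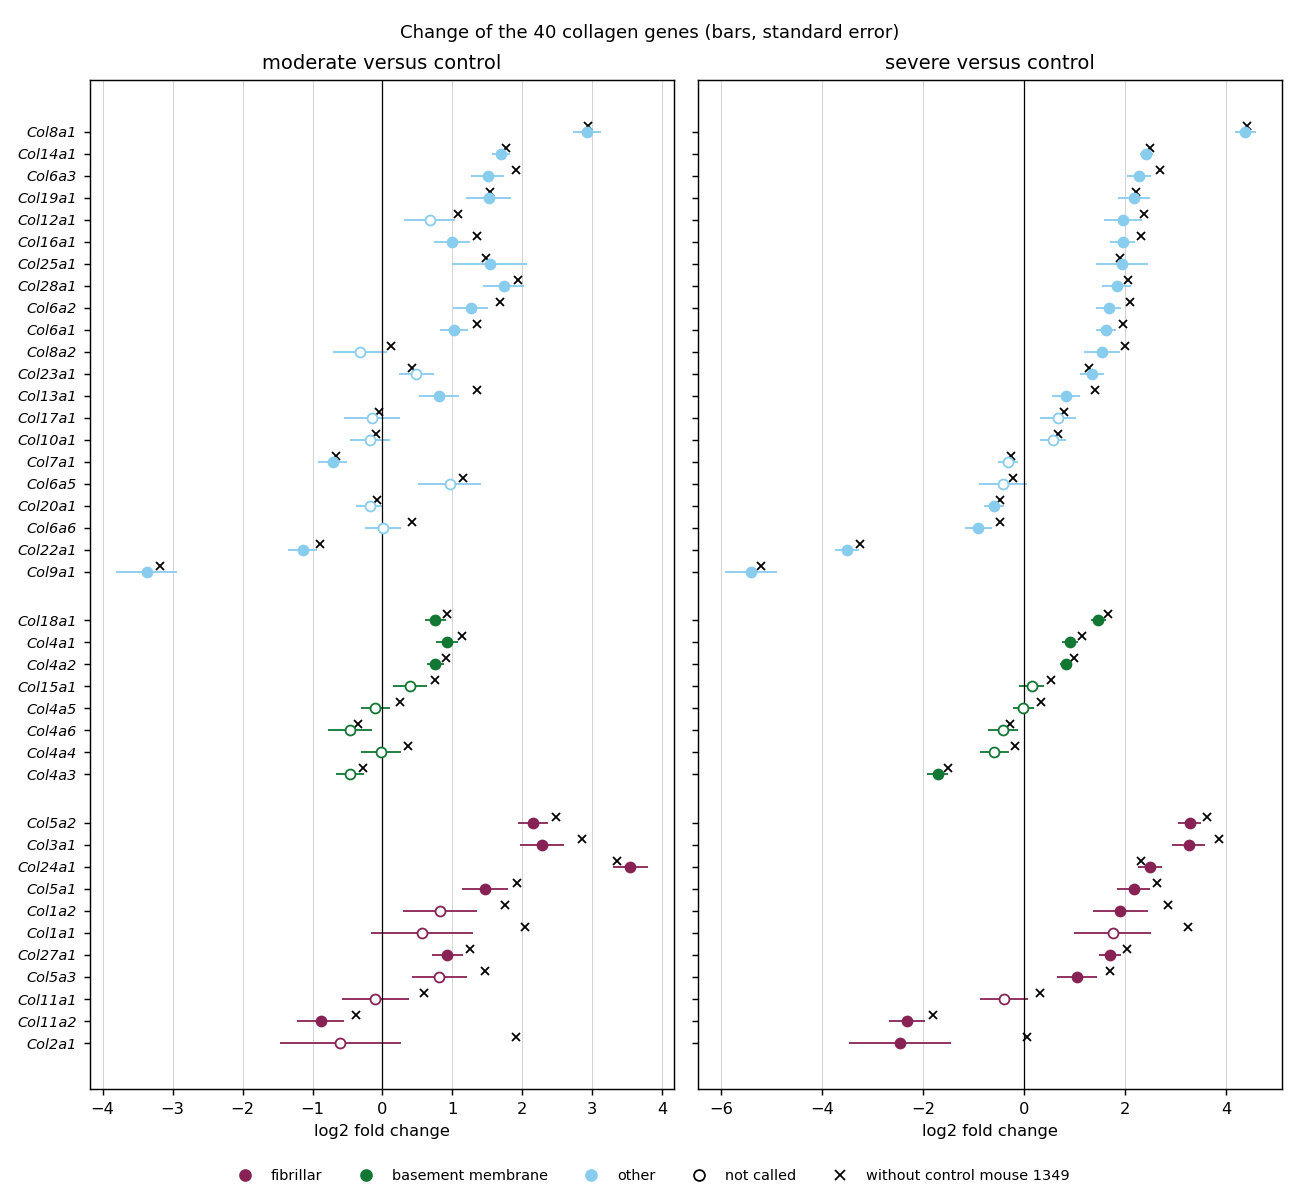
Log2 fold change of each of the 40 collagen genes against control in the moderate (left) and severe (right) model, with standard errors from edgeR. Filled points were called, open points were not, colors give the class, and crosses give the value without control mouse 1349, which lies to the right of the point for Col1a1 (2.04 against 0.57 in moderate mice).

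Among the fibrillar collagens, Col3a1 and Col5a2 were called higher in both models and between them. Col3a1 (chr1:45311538-45349706, GRCm38, plus strand), whose homotrimers form the thin fibrils of compliant tissue, had 185, 245 and 554 CPM in control, 283, 259.5 and 287 in FLExD/+, 1708, 1592 and 1483 in moderate and 3429.8, 2909.5 and 3046 in severe mice. The 4 groups separated into single-transgenic, moderate and severe levels without overlap. It was 4.86-fold higher in moderate (log2 2.28 ± 0.31, adjusted p = 4.4e-05) and 9.53-fold higher in severe mice (log2 3.25 ± 0.32, adjusted p = 1.1e-06), and 1.96-fold higher in severe than in moderate mice (adjusted p = 0.016). Without mouse 1349 the log2 changes were 2.86 and 3.84.

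Col5a2, a chain of type V collagen, which sits inside type I fibrils and limits their width, had 36.7, 47 and 78.1 CPM in control, 51.3, 44.9 and 52.8 in FLExD/+, 276, 221 and 223 in moderate and 562, 473 and 529.6 in severe mice. Its log2 change was 2.15 ± 0.22 in moderate (adjusted p = 3.3e-06) and 3.27 ± 0.23 in severe mice (adjusted p = 3.3e-08), with severe mice 2.17-fold above moderate ones (adjusted p = 7.5e-04). Its partner chain Col5a1 had 30.6, 36.5 and 73.6 CPM in control, 33.1, 29.7 and 38.8 in FLExD/+, 112, 158 and 119 in moderate and 285, 165 and 182 in severe mice. Here only mouse 1349 among the controls came near the moderate group, and the log2 changes were 1.47 ± 0.32 and 2.16 ± 0.33 (adjusted p = 0.0031 and 1.5e-04). Without that mouse they were 1.92 and 2.63, and those of Col5a2 2.49 and 3.62. Severe and moderate mice did not differ past the threshold in Col5a1 (log2 0.70 ± 0.32, adjusted p = 0.09), although without mouse 1349 a nearly equal difference of 0.71 was called (adjusted p = 0.012). Mouse 1349 is in neither group and enters this comparison only through steps shared over all 4 groups, such as the estimate of spread. Col5a3, the remaining type V chain, had 34.8, 22.3 and 79.5 CPM in control, 36.2, 31.1 and 30.4 in FLExD/+, 85.1, 95.6 and 59.6 in moderate and 109, 86.3 and 86.2 in severe mice. Mouse 1349 reached the level of moderate mice, and only the severe change was called (1.04 ± 0.39, adjusted p = 0.036), the moderate one being 0.81 ± 0.39 (adjusted p = 0.11). Without that mouse the values were 1.46 in the moderate model (adjusted p = 2.2e-04) and 1.70 in the severe model (adjusted p = 3.3e-05).

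Col3a1 and Col5a2 lie next to each other on chromosome 1, pointing toward each other with 24614 bases between their annotated ends, and their log2 changes were 2.28 and 2.15 in moderate and 3.25 and 3.27 in severe mice. The other convergent pair, Col9a1 and Col19a1, with 9205 bases between them, moved in opposite directions (described with the FACITs).

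Type I collagen, the most abundant protein of mature fibrils, is encoded by a pair of genes whose calls changed without control mouse 1349. Col1a1 had 54.6, 114 and 549 CPM in control, 120.4, 78.2 and 153 in FLExD/+, 273, 419 and 371 in moderate and 1225, 557 and 625 in severe mice. Mouse 1349 was above all moderate mice and just below the lowest severe mouse, and neither the moderate change (log2 0.57 ± 0.74, adjusted p = 0.55) nor the severe one (1.75 ± 0.75, adjusted p = 0.063) was called. DESeq2 did call the severe one (adjusted p = 0.032). Without mouse 1349 both were called, at 2.04 in the moderate model (adjusted p = 0.0054) and 3.23 in the severe model (adjusted p = 2.8e-04).

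Col1a2, the other type I chain, had 108, 199 and 593 CPM in control, 198, 151 and 296 in FLExD/+, 461, 594 and 531 in moderate and 1411, 960.2 and 988 in severe mice. Its moderate change of 0.82 ± 0.53 was not called (adjusted p = 0.22) and its severe change of 1.90 ± 0.54 was (adjusted p = 0.01). Without mouse 1349 the values were 1.75 in the moderate model (adjusted p = 8.2e-04) and 2.85 in the severe model (adjusted p = 1.4e-05). Severe mice were also above moderate ones in both chains, with no overlap. With all 12 mice the edgeR differences of 1.18 ± 0.74 (Col1a1, adjusted p = 0.22) and 1.08 ± 0.53 (Col1a2, adjusted p = 0.12) were not called. Without mouse 1349, which is in neither group, values of 1.19 (adjusted p = 0.03) and 1.10 (adjusted p = 0.0059) were called. Among all 11 fibrillar genes, DESeq2 called 4 and limma on log2(TPM + 1) 6 higher between the models, in place of 3 by edgeR. Severe mouse 1047 was the highest of the 12 in both chains.

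The minor fibrillar collagens split. Col24a1, a fibrillar chain known from developing bone and cornea, had 4.4, 5.54 and 3.51 CPM in control, 6.1, 5.21 and 6.03 in FLExD/+, 45.1, 61.9 and 49.9 in moderate and 16.4, 31.2 and 27.9 in severe mice. It was the only called fibrillar collagen with its highest level in moderate mice: 11.7-fold above control there (log2 3.54 ± 0.25, adjusted p = 2.4e-07) and 5.6-fold in severe mice (2.49 ± 0.24, adjusted p = 1.5e-06). The severe mice lay below all 3 moderate mice (log2 -1.06 ± 0.21, adjusted p = 0.0012), a difference of -0.37 with library size alone (adjusted p = 0.093) and -0.27 on log2(TPM + 1) (adjusted p = 0.25). Mouse 1349 was the lowest control for this gene. Col27a1, its nearest relative in the class, rose with severity, from a mean of 3 ± 1.14 CPM (SD, n = 3) in controls to 5.74 ± 0.167 and 9.76 ± 1.95 CPM (log2 0.93 and 1.70, adjusted p = 0.0025 and 5.5e-06).

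The cartilage-type fibrillar chains were not called higher in either model. Col11a1 had 2.44, 7.27 and 14.3 CPM in control, 6.25, 6.25 and 10.3 in FLExD/+, 5.77, 8.83 and 7.96 in moderate and 6.92, 6.25 and 5.1 in severe mice, with overlapping groups and log2 values of -0.10 ± 0.47 and -0.40 ± 0.47 (adjusted p = 0.88 and 0.46). Without mouse 1349 these were 0.59 in the moderate model (adjusted p = 0.24) and 0.30 in the severe model (adjusted p = 0.51). Col11a2, which pairs with it in type XI collagen, had 6.74, 6.41 and 15.3 CPM in control, 7.97, 6.35 and 8.68 in FLExD/+, 3.19, 6.93 and 5.38 in moderate and 1.98, 2.1 and 1.59 in severe mice. It fell to 5.01-fold below control in severe mice (log2 -2.32 ± 0.36, adjusted p = 9.8e-05), and by 1.02 on the log2 scale with library size alone (adjusted p = 0.016). The moderate change of -0.88 ± 0.34 (adjusted p = 0.045) was lost without mouse 1349 (-0.38, adjusted p = 0.25). Col2a1, the main collagen of cartilage, was near the floor, with 0, 3 and 25 counts in control, 6, 5 and 15 in FLExD/+, 5, 14 and 8 in moderate and 2, 3 and 5 in severe mice. Its call in severe mice (log2 -2.47 ± 1.01, adjusted p = 0.043) rested on mouse 1349, which held 25 of the 28 control counts, and without it the value was 0.05 (adjusted p = 0.97).

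**Figure D3:**
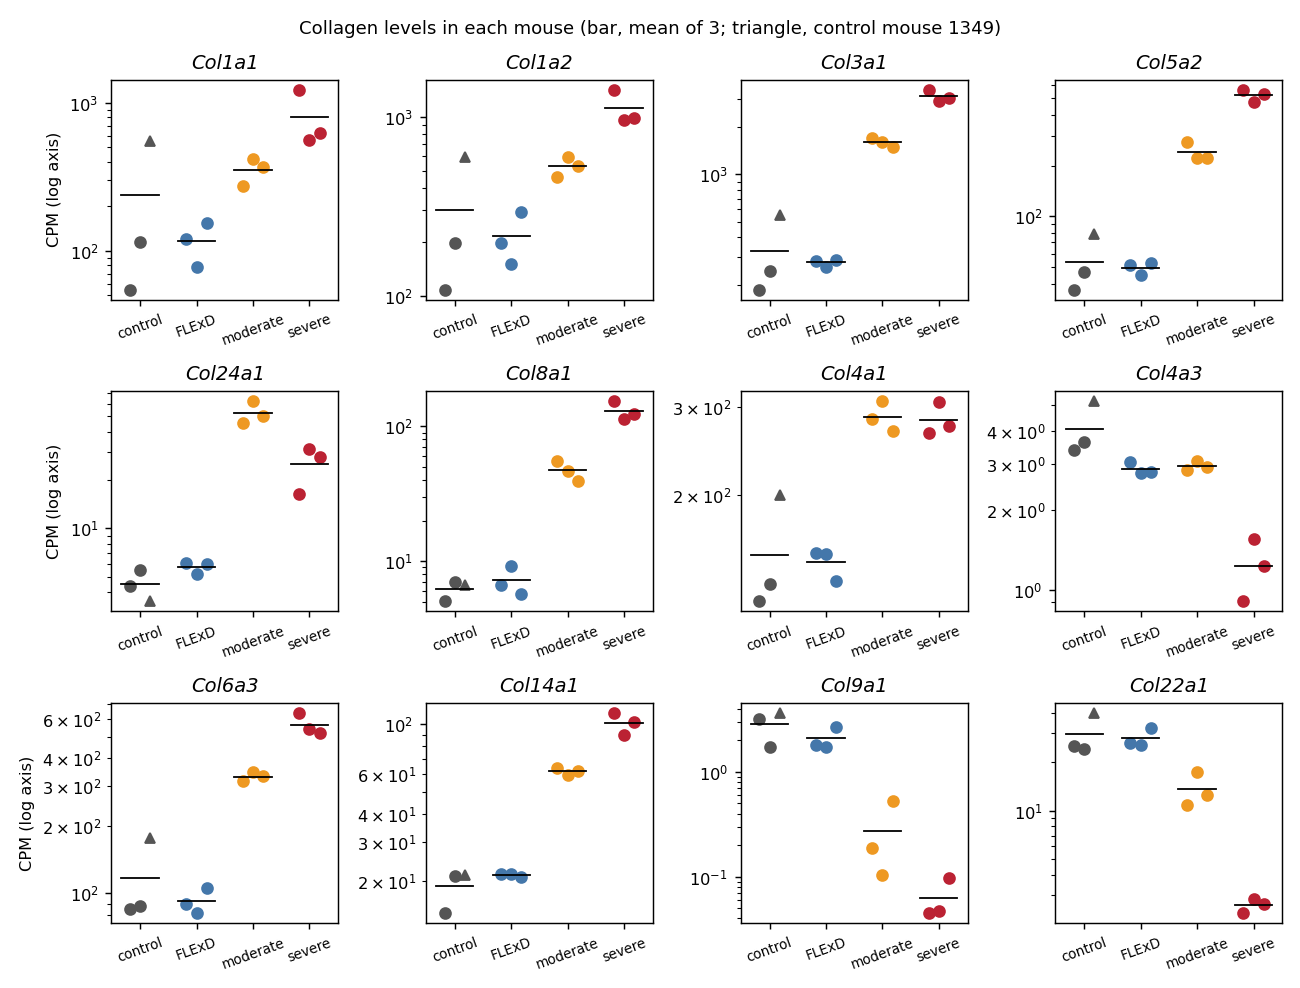
CPM of 12 collagen genes in each mouse, on log axes that differ between panels, with a bar for the mean of 3 mice and a triangle for control mouse 1349. Col3a1, Col5a2, Col8a1, Col6a3 and Col14a1 step up from single-transgenic to moderate to severe mice, Col24a1 is highest in the 3 moderate mice, and Col9a1 and Col22a1 step down.

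Among the basement membrane collagens, the 2 ubiquitous type IV chains rose in both models and were not called between them. Col4a1 (chr8:11198423-11312826, minus strand) had 123, 133 and 200.2 CPM in control, 153, 152 and 134 in FLExD/+, 284, 309 and 269 in moderate and 267, 307 and 275 in severe mice. Its log2 changes were 0.92 ± 0.15 in moderate and 0.90 ± 0.15 in severe mice (adjusted p = 1.8e-04 and 1.2e-04). Col4a2 (chr8:11312805-11449287, plus strand) had 74.4, 73.7 and 104 CPM in control, 74, 71.2 and 74.6 in FLExD/+, 130.1, 154 and 141 in moderate and 145, 159.9 and 142 in severe mice, with changes of 0.75 ± 0.12 and 0.83 ± 0.12 (adjusted p = 1.4e-04 and 3.1e-05). Without mouse 1349 the changes were 1.14 and 1.13 for Col4a1 and 0.90 and 0.99 for Col4a2. Between severe and moderate mice the difference was -0.02 ± 0.15 for Col4a1 and 0.07 ± 0.12 for Col4a2 (adjusted p = 0.92 and 0.65), but 0.67 and 0.77 with library size alone, close to the 0.72 by which that scaling moves all genes. The 2 genes lie head to head on chromosome 8, and their annotated exons overlap by 22 bases on opposite strands. Whether the reads were counted by strand is not given in the sources used here.

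The 4 tissue-restricted type IV chains did not follow. Col4a3, a chain of the kidney, lung and synaptic basement membranes, had 3.37, 3.61 and 5.17 CPM in control, 3.05, 2.78 and 2.8 in FLExD/+, 2.84, 3.07 and 2.9 in moderate and 0.902, 1.56 and 1.23 in severe mice. All severe mice lay below all others, and the gene fell to 3.29-fold below control (log2 -1.72 ± 0.21, adjusted p = 5.1e-06) and to 2.39-fold below moderate mice (adjusted p = 2.5e-04), while with library size alone the values were -0.43 (adjusted p = 0.077) and -0.56 (adjusted p = 0.028). Moderate mice differed from controls by -0.47 ± 0.20 (adjusted p = 0.068). Its head-to-head neighbour Col4a4, 71 bases away, had 1.24, 1.16 and 2.42 CPM in control, 0.984, 1.14 and 1.11 in FLExD/+, 1.58, 1.59 and 1.6 in moderate and 1.15, 1.3 and 0.749 in severe mice, and its severe difference of -0.59 ± 0.29 was not called (adjusted p = 0.076) and was 0.71 with library size alone. Col4a5 had 4.71, 5.49 and 9.67 CPM in control, 5.9, 4.51 and 5.59 in FLExD/+, 6.34, 5.55 and 6.66 in moderate and 6.88, 6.58 and 6.11 in severe mice. Col4a6, its head-to-head neighbour on the X chromosome, had 0.466, 0.674 and 0.758 CPM in control, 0.443, 0.347 and 0.53 in FLExD/+, 0.442, 0.448 and 0.489 in moderate and 0.586, 0.472 and 0.362 in severe mice. Neither was called in any comparison, with log2 values of -0.03 and -0.42 in severe mice, which were 1.28 and 0.88 with library size alone.

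The 2 basement membrane zone collagens differed from each other. Col18a1, whose C-terminal fragment is endostatin, had 9.53, 10.4 and 14.4 CPM in control, 8.27, 9.91 and 8.97 in FLExD/+, 21.4, 19.2 and 17.2 in moderate and 36.5, 28 and 30.3 in severe mice. It rose in both models (log2 0.75 ± 0.15 and 1.46 ± 0.15, adjusted p = 7.5e-04 and 7.0e-07, and 0.92 and 1.65 without mouse 1349) and was the only member of the class higher in severe than in moderate mice (0.71 ± 0.14, adjusted p = 9.4e-04), a step that all 3 mice of each group showed. Col15a1, which links the muscle basement membrane to the fibrils outside it and whose loss in mice causes a mild myopathy, had 34.3, 30.2 and 62.5 CPM in control, 32, 30.4 and 30.6 in FLExD/+, 52.1, 67.7 and 47.3 in moderate and 55.6, 47.3 and 37.4 in severe mice. It was not called (0.39 ± 0.25 and 0.14 ± 0.25, adjusted p = 0.21 and 0.62). Without mouse 1349 it was, at 0.76 in the moderate model (adjusted p = 0.0025) and 0.52 in the severe model (adjusted p = 0.016). The ratio of Col4a1 to Col1a1 TPM within a mouse, which no scaling touches, was 1.82, 0.934 and 0.296 in control, 1.04, 1.58 and 0.711 in FLExD/+, 0.853, 0.6 and 0.586 in moderate and 0.178, 0.446 and 0.356 in severe mice. The severe mice lay below the moderate mice without overlap, and the exact two-sided permutation test gave p = 0.1, the smallest that 3 against 3 allows.

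In type VI collagen, mutated in Bethlem and Ullrich muscular dystrophies, the 3 widely expressed chains rose together. Col6a1 had 68.1, 80.7 and 138 CPM in control, 99.6, 86.3 and 101 in FLExD/+, 206, 203 and 173 in moderate and 288, 287 and 304 in severe mice. Col6a2 had 42.1, 47.9 and 93.9 CPM in control, 44.5, 41.7 and 45.3 in FLExD/+, 145, 162 and 134 in moderate and 227, 169.9 and 189 in severe mice. Col6a3 had 85.5, 87.5 and 177 CPM in control, 89.5, 81.7 and 106 in FLExD/+, 316, 347 and 332 in moderate and 638, 538 and 516 in severe mice. In all 3 genes the moderate mice lay above every control, mouse 1349 included. The log2 changes in moderate and severe mice were 1.02 ± 0.20 and 1.61 ± 0.20 for Col6a1 (adjusted p = 8.0e-04 and 8.9e-06), 1.26 ± 0.24 and 1.67 ± 0.25 for Col6a2 (adjusted p = 9.3e-04 and 6.2e-05) and 1.50 ± 0.23 and 2.27 ± 0.24 for Col6a3 (adjusted p = 1.4e-04 and 2.0e-06). Without mouse 1349 they were 1.35 and 1.96, 1.67 and 2.10, and 1.91 and 2.69. Severe mice were above moderate ones in Col6a1 (0.60 ± 0.20, adjusted p = 0.023) and Col6a3 (0.77 ± 0.23, adjusted p = 0.014), and Col6a2 did not pass (0.41 ± 0.24, adjusted p = 0.17).

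The alternative chains that can take the place of Col6a3 in the trimer behaved differently. Col6a6 had 5.18, 4.53 and 10.1 CPM in control, 3.98, 4.26 and 5.11 in FLExD/+, 7.22, 5 and 7.73 in moderate and 4.13, 3.11 and 3.26 in severe mice. Its log2 difference was 0.01 ± 0.26 in moderate mice (adjusted p = 0.98), and in severe mice it was called lower than in control (-0.92 ± 0.27, adjusted p = 0.0075), a direction that turned with library size alone (0.39, adjusted p = 0.21) and on log2(TPM + 1) (0.16) and was not called without mouse 1349 (-0.49, adjusted p = 0.054). Col6a5 had 0.414, 1.11 and 1.14 CPM in control, 0.344, 1.09 and 0.289 in FLExD/+, 1.86, 2.31 and 1.08 in moderate and 0.879, 0.59 and 0.507 in severe mice, and only the fall from moderate to severe mice was called (-1.40 ± 0.42, adjusted p = 0.014). Within mice, the TPM ratio of Col6a3 to Col6a1 was 0.536, 0.469 and 0.56 in control, 0.385, 0.39 and 0.458 in FLExD/+, 0.683, 0.768 and 0.85 in moderate and 0.975, 0.808 and 0.754 in severe mice. Both models lay above all single-transgenic mice.

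For 7 such ratios 28 group comparisons were made, and exact two-sided permutation tests over 3 against 3 mice can give no p under 0.1, which is 0.28 after Benjamini-Hochberg adjustment. Groups that did not overlap also included Col5a1 to Col5a2, at 0.592, 0.547 and 0.659 in control, 0.279, 0.502 and 0.372 in moderate and 0.355, 0.243 and 0.236 in severe mice (exact p = 0.1 for each model against control). FLExD/+ mice, at 0.459, 0.486 and 0.519, also lay below every control (exact p = 0.1) and overlapped the moderate mice. The ratio was lower in both models than in any control, by 0.68 and 1.13 on the log2 scale. The ratio of Col6a1 to Col6a2 was 2.08, 1.93 and 2.07 in FLExD/+, 1.52, 1.56 and 1.36 in control and 1.31, 1.15 and 1.19 in moderate mice, so that FLExD/+ mice lay above and moderate mice below every control (exact permutation p = 0.1 for each). FLExD/+ mice also lay below every control in the ratio of Col6a3 to Col6a1 given above (exact p = 0.1). The ratio of Col3a1 to Col1a1, at 3.47, 2.16 and 1.04 in control and 6.53, 3.97 and 4.12 in moderate mice, also separated these 2 groups (exact p = 0.1), and the severe values were 2.91, 5.4 and 5.02 (exact p = 0.2). Col1a1 to Col1a2 was 0.494, 0.582 and 0.932 in control and 0.875, 0.583 and 0.633 in severe mice, and Col4a1 to Col4a2 was 1.41, 1.6 and 1.68 and 1.57, 1.66 and 1.7, with overlapping groups (exact permutation p = 0.7 and 0.6).

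Col8a1, a short-chain collagen of vessel walls and Descemet's membrane, had the largest rise in severe mice of the 40 genes. It had 5.03, 6.99 and 6.68 CPM in control, 6.64, 9.27 and 5.69 in FLExD/+, 55.7, 47 and 39.2 in moderate and 153, 113 and 123 in severe mice. It was 7.57-fold higher in moderate (log2 2.92 ± 0.20, adjusted p = 1.1e-07) and 20.8-fold higher in severe mice (log2 4.38 ± 0.21, adjusted p = 1.2e-09), with the 3 groups far apart and mouse 1349 within the range of the other controls. Its partner chain Col8a2 had 1.66, 1.69 and 3.6 CPM in control, 3.35, 2.78 and 4 in FLExD/+, 2.11, 2.48 and 1.01 in moderate and 9.36, 5.26 and 5.68 in severe mice. It was not called in moderate mice (-0.32 ± 0.39, adjusted p = 0.52) and rose in severe mice (1.54 ± 0.35, adjusted p = 0.0016), and the step between the models was 1.86 ± 0.35 (adjusted p = 7.2e-04). Col10a1, the remaining short-chain gene and a marker of hypertrophic cartilage, was called only between the models (0.74 ± 0.25, adjusted p = 0.023) and had low levels, 0.489 to 1.11 CPM over the 12 mice. Its annotated exons overlap those of Nt5dc1, a tested gene on the opposite strand, and reads of the 2 genes may not have been told apart.

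Among the 7 FACITs, 4 were called higher and 3 lower in severe mice, against 32.9% and 27.9% of all genes. Of these, Col20a1 turned direction with library size alone and on log2(TPM + 1). Col14a1, which binds type I fibrils, had 14.5, 21.2 and 21.4 CPM in control, 21.6, 21.5 and 20.9 in FLExD/+, 64.1, 59.6 and 61.7 in moderate and 112, 89.2 and 103 in severe mice. Its log2 changes were 1.70 ± 0.13 and 2.41 ± 0.13 (adjusted p = 1.4e-07 and 1.4e-09), and levels stepped up from single-transgenic to moderate to severe mice without overlap. Col12a1, a related fibril-surface collagen whose mutation in people causes a myopathy overlapping with Ehlers-Danlos syndrome, had 14.5, 24.7 and 40.2 CPM in control, 23.2, 18.5 and 36 in FLExD/+, 37.7, 51.9 and 37.3 in moderate and 127, 81.7 and 99.6 in severe mice. It was not called in moderate mice (0.67 ± 0.36, adjusted p = 0.15, and 1.08, adjusted p = 0.024, without mouse 1349) but rose in severe mice (1.95 ± 0.37, adjusted p = 8.6e-04), 2.43-fold above the moderate ones. Col16a1 and Col19a1 rose in both models, Col16a1 by 1.00 and 1.95 and Col19a1 by 1.52 and 2.17 on the log2 scale.

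Col22a1 marks the junction between muscle fibers and tendon, where the fibers themselves make it. It had 25.1, 23.9 and 40.2 CPM in control, 26.1, 25.6 and 32.6 in FLExD/+, 10.8, 17.3 and 12.4 in moderate and 2.32, 2.83 and 2.63 in severe mice, so that it stepped down from control to moderate to severe mice with no overlap, FLExD/+ mice being at the control level. It fell to 2.2-fold below control in moderate (log2 -1.14 ± 0.21, adjusted p = 5.5e-04) and 11.5-fold below in severe mice (-3.52 ± 0.24, adjusted p = 3.4e-08), and to 5.2-fold below moderate mice in severe ones (adjusted p = 7.6e-06). With library size alone the 2 log2 changes were -0.54 and -2.22 (adjusted p = 0.037 and 8.0e-07). Beside it, the summed CPM of 6 skeletal muscle markers was 122544 to 167642 in control, 54786 to 66428 in moderate and 7965 to 14519.5 in severe mice. Their part in the fall of Col22a1 was not tested.

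Col9a1, a FACIT of cartilage fibrils, had the largest fall, with 62, 36 and 77 counts in control, 37, 35 and 56 in FLExD/+, 6, 3 and 16 in moderate and 2, 2 and 4 in severe mice. The log2 changes were -3.37 ± 0.44 and -5.42 ± 0.52 (adjusted p = 1.8e-05 and 3.3e-07), and -3.19 and -5.23 without mouse 1349. Because the severe level is near the floor, the fitted fold leans on few counts. The ratio of summed, scaled counts was 10.5 for control over moderate (95% exact interval 6.85 to 16.6) and 45.9 for control over severe mice (22.8 to 108), intervals that cover counting error only. Its neighbour Col19a1, which was higher in both models, lies 9205 bases away. The partner chains Col9a2 and Col9a3 had at most 7 and 13 counts in any mouse, and Acan, a core gene of cartilage, and Bglap, of bone, had at most 3 counts in every mouse. Col20a1, the last FACIT, was lower in severe mice by edgeR with TMM (-0.60 ± 0.20, adjusted p = 0.014) but higher with library size alone (0.70) and on log2(TPM + 1) (0.22), and without mouse 1349 it was not called (-0.48).

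Of the 4 transmembrane collagens, Col13a1, Col23a1 and Col25a1 were called higher in severe mice and Col17a1 was not, where 32.9% of all genes were higher. Col13a1, which helps hold the neuromuscular junction together, rose by 0.81 and 0.83 on the log2 scale, from 1.23 ± 0.702 CPM (SD, n = 3) in controls. Col25a1, which motor axons need to innervate developing muscle, rose by 1.53 and 1.93 from 0.241 ± 0.191 CPM, a level near the floor, and the moderate call was lost without mouse 1349 (adjusted p = 0.071). Col23a1 was called only in severe mice (1.33, adjusted p = 1.4e-04). Col28a1, which in nerve lies around Schwann cells, rose by 1.73 and 1.83, at levels of 0.518 to 4.57 CPM over all mice. Col7a1, the anchoring fibril collagen of skin, was called lower in moderate mice only (-0.71 ± 0.21, adjusted p = 0.0098), and its value there was -0.10 with library size alone and -0.08 on log2(TPM + 1).

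The genes that process and bind collagen were described from a list of 43, of which 40 were tested. In moderate mice 24 were called higher and 2 lower, and in severe mice 24 higher and 5 lower, against the same shares of all genes as above. With library size alone 0 were lower in either model, against 4.51% of all genes in moderate and 6.42% in severe mice. On log2(TPM + 1) 0 were lower as well, against 4.42% and 5.92%. All 5 lysyl oxidases, the copper enzymes that start the cross-links of fibrils, rose in both models. Lox had 8.34, 8.86 and 18.1 CPM in control, 6.4, 7.09 and 13.6 in FLExD/+, 46.4, 40.1 and 43.4 in moderate and 202, 133 and 133 in severe mice, a log2 change of 1.88 ± 0.35 in moderate and 3.73 ± 0.37 in severe mice (adjusted p = 0.0011 and 5.7e-06), with mouse 1349 again the highest control. Loxl3 rose by 1.27 and 2.66, Loxl1 by 1.46 and 2.03, Loxl2 by 1.26 and 1.11 and Loxl4 by 0.82 and 0.65 on the log2 scale.

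The prolyl 4-hydroxylases, whose hydroxyprolines stabilise the helix, diverged by isoform. P4ha3 had 0.155, 0.289 and 0.19 CPM in control, 0.295, 0.149 and 0.145 in FLExD/+, 1.64, 1.66 and 1.21 in moderate and 6.85, 4.58 and 5.19 in severe mice, rising by 2.80 and 4.68 on the log2 scale (adjusted p = 1.0e-05 and 6.6e-09). Its control levels were near the floor, since 3 counts are 0.155, 0.145 and 0.142 CPM in the control libraries. The fitted folds of P4ha3 therefore lean on few control counts. The more abundant P4ha1 had 53.4, 66.2 and 63.5 CPM in control, 66.5, 59.9 and 58.8 in FLExD/+, 34.8, 37.6 and 34.8 in moderate and 33.2, 32.4 and 32.9 in severe mice, and was called lower (-0.77 ± 0.09 and -0.90 ± 0.09, adjusted p = 6.0e-06 and 5.1e-07), whereas with library size alone its values were -0.17 and 0.41. P4ha2 was lower in severe mice (-0.56, but 0.74 with library size alone). In the complex that modifies a further proline and helps folding, Lepre1 (P3h1), Crtap and Ppib rose in both models, with severe log2 changes of 1.24, 1.52 and 1.99. Of the lysyl hydroxylases, Plod2, which directs the stiffer type of cross-link, rose by 1.58 and 2.31, Plod3 by 0.78 and 1.17, and Plod1 had 0.20 and 0.50 and was not called, the severe value being just under the minimum of 0.5. The collagen galactosyltransferase gene Glt25d2 (Colgalt2) was called lower in severe mice (-1.44, and -0.15 with library size alone). The collagen chaperones Serpinh1 and Fkbp10 rose by 0.95 and 1.47 in moderate and 1.43 and 2.56 in severe mice.

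Of 7 tested genes for propeptide removal, 6 rose in moderate and 5 in severe mice, where 24.4% and 32.9% of all genes were higher. Adamts14, an N-proteinase, rose by 1.73 and 3.36, Bmp1, the C-proteinase, by 0.79 and 1.28 and its enhancer Pcolce by 1.09 and 1.32. Pcolce2 had 11.9, 15.9 and 11.1 CPM in control, 9.89, 11.3 and 16.5 in FLExD/+, 31.5, 28.4 and 34 in moderate and 9.2, 15.9 and 14.7 in severe mice, and was called higher in moderate mice (1.27 ± 0.22, adjusted p = 4.2e-04) and fell from there to severe mice (-1.24 ± 0.22, adjusted p = 5.2e-04). Among 8 tested receptors the direction was mixed. Lair1, an inhibitory collagen receptor of leukocytes, had 0.777, 0.867 and 0.284 CPM in control, 0.394, 0.793 and 0.627 in FLExD/+, 6.59, 5.03 and 6.27 in moderate and 17.3, 14.8 and 14.3 in severe mice, with log2 changes of 3.22 ± 0.26 and 4.59 ± 0.25 (adjusted p = 2.5e-07 and 1.5e-09). Mrc2, the uptake receptor for collagen, rose by 1.28 and 2.07. The integrin chains Itga1 and Itga2 were called lower in severe mice (-0.83 and -1.02), at 0.47 and 0.28 with library size alone, and the fibroblast receptors Ddr2 and Itga11 were not called in either model but had 0.93 and 1.35, and 0.81 and 1.16, with library size alone. Ddr1, the epithelial discoidin receptor, was called lower in moderate mice (-0.66, and -0.05 with library size alone) and higher in severe than in moderate mice (1.08, adjusted p = 1.3e-04).

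**Figure D4:**
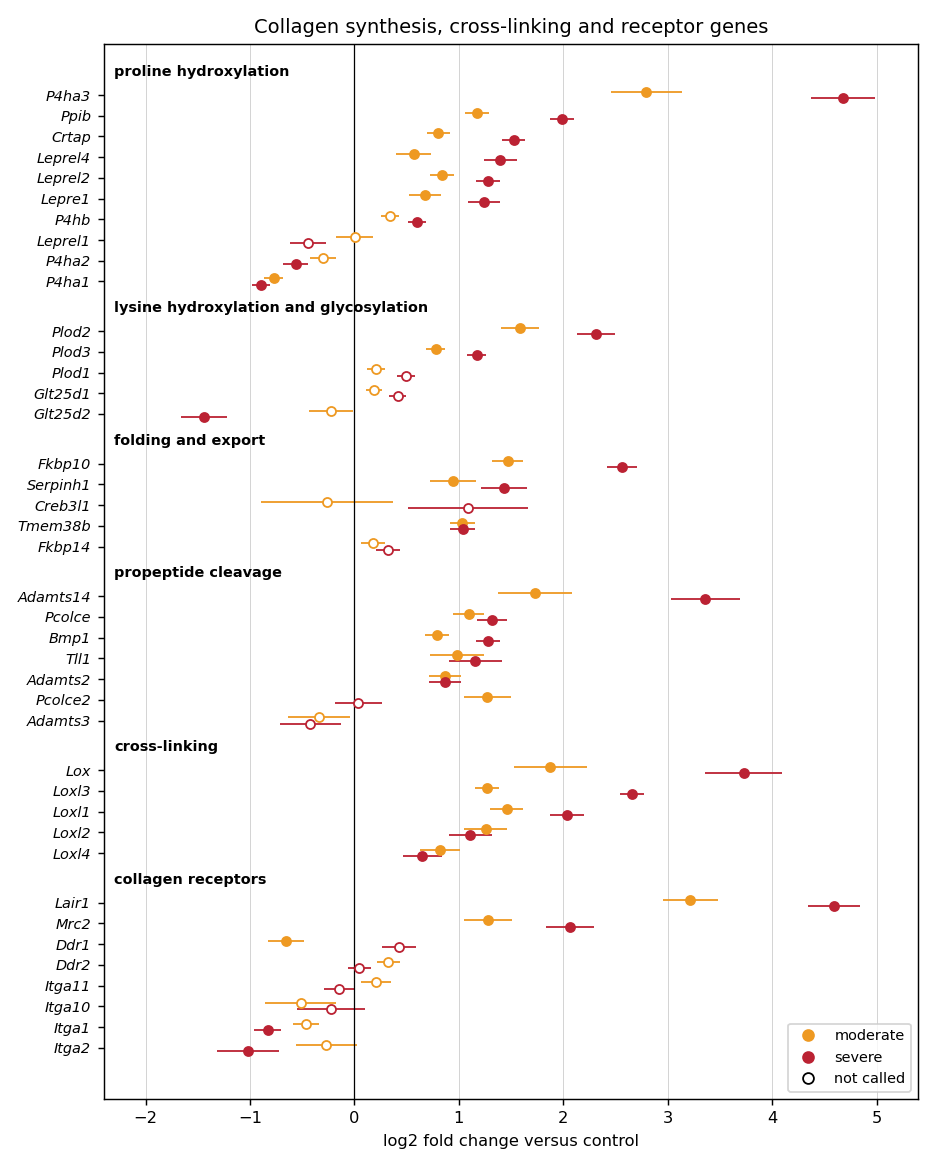
Log2 fold change against control, with standard errors from edgeR, of the 40 tested genes for collagen modification, folding, trimming, cross-linking and binding in the moderate and severe models, grouped by role. Filled points were called. The 5 lysyl oxidases lie to the right of 0 in both models. P4ha3 and Lair1 reach log2 changes of 4.68 and 4.59 in severe mice, P4ha3 from a control level near the floor.

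Markers of the cell types that could supply these transcripts moved unevenly. All 5 macrophage markers rose in both models, and their summed level was 54.9 to 66.2 CPM in control, 55 to 61.4 in FLExD/+, 318 to 399.9 in moderate and 688 to 779.6 in severe mice. Of 7 fibroblast and fibro-adipogenic progenitor markers, 4 were higher and 0 lower in moderate and 3 higher and 2 lower in severe mice (over all genes 24.4% higher and 17% lower, and 32.9% and 27.9%), and with library size alone 6 and 7 were higher and 0 lower. They had sums of 456 to 528, 489 to 534, 531 to 552 and 363 to 448 CPM in the same order. Pdgfra, which defines these cells, was at 58 ± 10.0 CPM (SD, n = 3) in control and 93.1 ± 3.28 in severe mice (log2 0.68 ± 0.11, adjusted p = 5.6e-05, and 1.98 with library size alone). Decorin (Dcn), which supplied most of the fibroblast sum, was at 325 ± 16.7 and 188 ± 30.1 CPM (log2 -0.79 ± 0.12, adjusted p = 2.9e-05, and 0.51 with library size alone). The part of these cells in the collagen changes was not tested.

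Acta2, the smooth muscle actin also made by myofibroblasts, rose by 0.89 in moderate and 2.42 in severe mice on the log2 scale, whereas Myh11, of smooth muscle, was called higher in moderate mice at 0.99 (adjusted p = 0.0041) and lower in severe mice at -1.17, which was 0.12 with library size alone. Of the pericyte markers, Rgs5 had -0.85 and -1.99, and -0.24 and -0.69 with library size alone. Pdgfrb had 0.03 and 0.46, neither called, but 0.64 and 1.77 with library size alone, both called. All 4 endothelial markers were called lower in severe mice by edgeR with TMM, against 27.9% of all genes, but with library size alone Pecam1, Cdh5 and Tek had 0.70, 0.15 and 0.21 and only Kdr was negative (-1.08). Their sums were 138 to 155 CPM in control and 60.4 to 71.7 CPM in severe mice. Col4a1, Col4a2, Col18a1 and Col8a1, which vessels also make, were higher in the same severe libraries. The part of vessels in the levels of these collagens was not tested. The 4 tendon markers summed to 34.7 to 79.1 CPM in control, 35.4 to 67 in FLExD/+, 27.4 to 47 in moderate and 23.4 to 29.5 in severe mice, with Tnmd, Mkx and Fmod called lower and Scx higher in severe mice, of which the first 3 had 0.14, -0.19 and -0.42 with library size alone and were not called. Of 4 Schwann cell markers 3, and of 3 adipocyte markers 2, were called lower in severe mice, and with library size alone 1 and 0. The shares over all genes were 27.9% with TMM and 6.42% with library size alone. Schwann cell markers summed to 15.2 to 29.1 CPM in control and 7.85 to 13.5 in severe mice and adipocyte markers to 35.4 to 53.4 and 7.61 to 21.2 CPM. The epidermal markers Krt5 and Krt14 had at most 3 counts in every mouse, and Krt10 was called lower in both models (-1.15 and -1.03, but 0.26 in severe mice with library size alone). Of the cartilage and bone markers only Sox9 was expressed enough to be tested, and it rose by 1.57 and 2.65 on the log2 scale.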

How the data were processed

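Libraries of 12 gastrocnemius muscles were poly(A)-selected and sequenced as single reads. The authors deposited 1 gene table with expected counts (RSEM 1.2.4, with Bowtie and TopHat2 2.0.8b, mm10, per the submitters' processing notes) and TPM. The expected counts are the authors' estimates, which need not be whole (31.8 to 36.2% of the 37748 values per library were not), and the TPM deposited by the authors are shares of the transcripts of each library, corrected for length. Whether counting used the strand is not given in the sources used here. Besides Col4a1 and Col4a2, annotated exons of Col4a3, Col5a1 and Col10a1 overlap tested genes on the opposite strand, and those of Col20a1 a tested gene on the same strand.

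Expected counts were rounded and fitted with edgeR 4.0.16 (TMM, quasi-likelihood, 1 fit over all 4 groups, Benjamini-Hochberg adjustment over 16679 genes that passed its low-count filter) in R 4.3.3. Genes with an adjusted p below 0.05 and a log2 fold change of 0.5 or more in size were called. Alternatives were DESeq2 1.42.0, limma 3.58.1 on log2(TPM + 1), library size alone, median-of-ratios factors, no filter, only the 2 groups compared, stricter thresholds, and each mouse left out. Ratios of TPM within a mouse were compared by exact permutation tests. The edgeR, DESeq2 and limma steps were tested on simulated data. Totals of 23796902 to 29136403 counts set the precision, and each mouse is 1 library, so p-values measure the spread between mice. Figures were drawn with Python 3.11.15 and matplotlib 3.10.9.

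Per-mouse values were given for chains of types I, III, IV, V, VI, XI, XII, XIV, XV, XVIII and XXII and for the 3 largest called changes in either direction of a comparison, and the rest by counts and ranges. From the list of collagen-processing genes, every called gene could be named. Ibsp and other markers under the filter were not tested. The members, gene lists and ratios were chosen with earlier results of these data known. Promoter sequences came from RefSeq (GRCm38.p6) and gene positions from GENCODE for GRCm38, the build of mm10. No column of the deposited table lacked a sample.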

Additional observations from a re-analysis of the deposited data

Results flagged for a closer look

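For 4 collagens the effects in the 2 models had opposite signs or lay on both sides of 0 and edgeR called the difference between severe and moderate mice, which share the same controls. Col8a2 differed by 1.86 on the log2 scale, with -0.32 in moderate and 1.54 in severe mice (adjusted p = 7.2e-04). Col10a1 differed by 0.74, with -0.17 and 0.57 (adjusted p = 0.023). Col6a5 differed by -1.40, with 0.96 and -0.43 (adjusted p = 0.014), and the neighbouring Col6a6 by -0.93, with 0.01 and -0.92 (adjusted p = 0.0098). Of the 8 effects against control, those of Col8a2 and Col6a6 in severe mice were called. The opposite signs were not seen in every fit. Without control mouse 1349 the moderate effect of Col8a2 turned sign, and over the mice left out it ranged from -0.57 to 0.13. With DESeq2 and with median-of-ratios factors the moderate effect of Col6a6 turned sign. With library size alone the effects in moderate and severe mice were 0.29 and 2.85 for Col8a2, 0.43 and 1.87 for Col10a1, 1.57 and 0.87 for Col6a5 and 0.61 and 0.39 for Col6a6, and on log2(TPM + 1) all 8 were likewise above 0. The differences between the models in Col6a5 and Col6a6 were then -0.70 and -0.22 with library size alone and were not called (adjusted p = 0.16 and 0.47).

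Emid2, the type XXVI collagen gene that the name rule leaves out, had 3, 4 and 21 counts in control, 20, 14 and 11 in FLExD/+, 69, 49 and 34 in moderate and 195, 107 and 145 in severe mice. All 6 TMX-treated mice lay above all single-transgenic mice. By edgeR its log2 change was 1.86 ± 0.51 in moderate and 2.92 ± 0.48 in severe mice (adjusted p = 0.0077 and 9.9e-05).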

How the results depend on the processing

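Counts of called genes depended most on the scaling between libraries. With library size alone, 26 collagens were higher in severe than in moderate mice in place of 13 (5 of them fibrillar, 5 basement membrane and 16 other), and on log2(TPM + 1) by limma 20 were (6 fibrillar and 3 basement membrane). Over all genes, 57.8% and 48.2% were then higher between the models, in place of 17.6%. The lower calls shrank under these 2 scalings: from 4 to 2 and 1 in moderate mice, from 7 to 3 and 3 in severe mice, and from 7 to 2 and 1 between the models. By class, the lower fibrillar calls went from 1 to 0 and 0, from 2 to 1 and 1 and from 2 to 0 and 0, the basement membrane call in severe mice from 1 to 0 and 0, and the other calls in severe mice from 4 to 2 and 2 and between the models from 4 to 1 and 1. On log2(TPM + 1) alone, the lower basement membrane call between the models became 0 and the lower other calls in moderate mice became 1. Basement membrane genes higher in severe mice rose in number from 3 to 7 and 5 of 8, while the share over all genes rose from 32.9% to 75.4% and 64.1%. Of the collagen-processing genes, 31 and 29 in place of 14 were higher in severe than in moderate mice, 0 and 0 in place of 2 lower in moderate and in place of 5 lower in severe mice, and 0 in place of 3 lower between the models on log2(TPM + 1).

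Among values called in at least 1 of the 2 fits compared, those that changed sign with library size alone in severe mice were those of Col20a1 (0.70), Col4a4 (0.71), Col4a5 (1.28), Col4a6 (0.88), Col6a6 (0.39) and Col7a1 (0.97), and on log2(TPM + 1) those of Col20a1 (0.22), Col4a5 (0.71) and Col6a6 (0.16). Between the models Col4a1 did so, at 0.67 and 0.69. Without control mouse 1349, Col2a1 in severe mice was at 0.0467, its range over the mice left out being -3.04 to that value. Further values, called in neither fit, also changed sign: with library size alone 9 in moderate mice, 2 in severe mice and 4 between the models, on log2(TPM + 1) 8, 5 and 4, and without control mouse 1349 5, 2 and 0. Scaling itself moves the median of all genes by the amounts given above, and the cause of the remaining changes was not tested.

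With a log2 fold change of at least 1, the higher basement membrane calls were 0 in moderate, 1 in severe and 0 between the models, the higher calls between the models were 4 (1 fibrillar and 3 other), and the lower calls were 2 in moderate mice (0 fibrillar) and 2 among the other class in severe mice. At an adjusted p under 0.01 the higher calls between the models were 8 (5 other), the lower fibrillar calls 0 in moderate and 1 in severe mice, and the lower other calls between the models 2. Without a filter on low counts, and with only the 2 groups compared, the lower fibrillar calls were 0 in moderate and 1 in severe mice, and with only those groups 6 fibrillar genes were higher in severe than in moderate mice. Type IV chains alone gave 0 higher between the models. For the other settings of this paragraph, shares over all genes were not computed.

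Leaving out 1 mouse at a time, the higher calls between the models ranged from 8 to 16 (8 without severe mouse 1047), of which the other class had 5 to 11 (5 without the same mouse) and the fibrillar class 2 to 6 (6 without control mouse 1349). Fibrillar genes higher in moderate mice ranged from 5 to 8 (8 without control mouse 1349). Lower calls in severe mice ranged from 4 to 9 in all, from 2 to 5 in the other class (4 and 2 without control mouse 1349), from 1 to 3 in the fibrillar class, and from 1 to 2 in the basement membrane class (2 without control mouse 1127 or 1246). Lower calls in moderate mice ranged from 0 to 1 in the fibrillar and from 0 to 1 in the basement membrane class (1 without control mouse 1127). DESeq2 and median-of-ratios factors kept every collagen called by edgeR with TMM. Over all comparisons and alternatives, 762 counts stayed within 1.5 times and 78 did not. This tally includes the FLExD/+ versus control counts, which were 0 by edgeR, and a count of 0 that stayed 0 was taken as unchanged. No paired analysis was possible because no replicate number of the labels is shared between groups.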
